A study of Mus musculus with 12 samples.

Results

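The difference between the imiquimod (IMQ) responses of 2 genotypes was examined in mouse back skin: for every gene, the change from control to IMQ in mice labelled Lcn2-/- minus the same change in WT mice. IMQ, an agonist of the receptor TLR7, is rubbed on mouse skin as a cream to raise psoriasis-like lesions. All 12 samples of the series entered the comparison, 3 mice in each of 4 groups: WT control, WT IMQ, Lcn2-/- control and Lcn2-/- IMQ. The mice were female, aged 8 to 10 weeks, on a C57BL/6 background with WT littermates as controls, and their shaved backs received 5% IMQ cream or vehicle cream daily for 6 days. The repository labels call the genotype a knockdown and the control treatment none, and the study's own description was followed for both. RNA from each skin sample was sequenced, and of the 56923 genes in the deposited table of raw counts, 18529 had enough reads to be tested.

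Lcn2 encodes lipocalin 2, a secreted protein that binds bacterial iron carriers and is released by neutrophils and inflamed epithelium. In this model IL-23 drives T cells to make IL-17A and IL-17F, which with IL-36 and EGF receptor ligands make keratinocytes divide, express stress keratins and call in neutrophils. The matrix of the dermis is made by fibroblasts, and type I interferon, which TLR7 agonists can elicit, switches on a set of antiviral genes. The interaction term asks which parts of this programme changed by the same factor in both genotypes and which changed by a different one.

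Reads on the targeted gene were counted in every library. Lcn2 had 6.28, 8.64 and 4.57 CPM in the WT control mice, 61.2, 183 and 76.1 CPM in the WT IMQ mice, 10.5, 9.22 and 15.9 CPM in the Lcn2-/- control mice and 34.3, 29.9 and 49.8 CPM in the Lcn2-/- IMQ mice (CPM, counts scaled to a common normalized library size). It rose with IMQ in both genotypes, by 4.03 (SE 0.40, adjusted p = 8.1e-05) on the log2 scale in WT mice and by 1.67 (SE 0.40, adjusted p = 0.0121) in mice labelled Lcn2-/-, and the control mice labelled Lcn2-/- lay above all 3 WT controls. The tables give counts per gene, so reads outside a deleted part of the gene cannot be told from reads of an intact gene. "Lcn2-/-" is therefore a label throughout, and every direction between genotypes is a direction between the libraries so labelled.

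Libraries held between 16448226 and 28592110 counts, and a floor of 3 counts was worth between 0.105 and 0.182 CPM, which covers counting error only. The skin keratins and collagens Krt5, Krt14, Krt10 and Col1a1 were counted in every library, while the extraction protocol in the labels speaks of retinas. The control mice differed among themselves. Summed over 20 hair keratins found in the table, the WT controls lay between 16.1 and 2841 CPM and the Lcn2-/- controls between 215 and 9737 CPM, whereas all 6 IMQ mice lay between 8.86 and 64.3 CPM. Per-gene GC content was also related to the level of a library relative to the mean of all libraries: Spearman's rho across genes was between 0.0767 and 0.141 in the Lcn2-/- IMQ libraries, between -0.11 and -0.0792 in the Lcn2-/- control libraries and between -0.0518 and 0.0678 in the WT libraries.

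Of the 18529 genes tested, 398 had responses that differed between the genotypes. In a quasi-likelihood fit of the 4 group means over 12 mice (edgeR, p adjusted by Benjamini-Hochberg over all tested genes), the difference was above 0 for 253 genes (1.37% of those tested) and below 0 for 145 (0.783%) at an adjusted p under 0.05. Above 0 means a larger rise or a smaller fall in the mice labelled Lcn2-/-. Their own IMQ responses numbered 2611 genes higher (14.1%) and 2080 lower (11.2%), and the WT responses 2633 higher (14.2%) and 2654 lower (14.3%). Genes higher in both made up 45.4% of the WT list and 45.8% of the Lcn2-/- list, and genes lower in both 39.3% and 50.2%. Across genes, which are not independent replicates, the 2 responses had a Pearson correlation of 0.663 and a Spearman correlation of 0.494.

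The overlap of the 2 lists does not say that the remaining genes differed. Of 1422 genes called higher in WT mice and not called in mice labelled Lcn2-/-, 68 passed the test of the difference itself, and of 1355 genes called higher only in the latter, 113 did. Among falls the numbers were 73 of 1550 and 19 of 1021. The median standard error of the difference was 0.34 on the log2 scale, against 0.24 for either response.

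**Figure D1:**
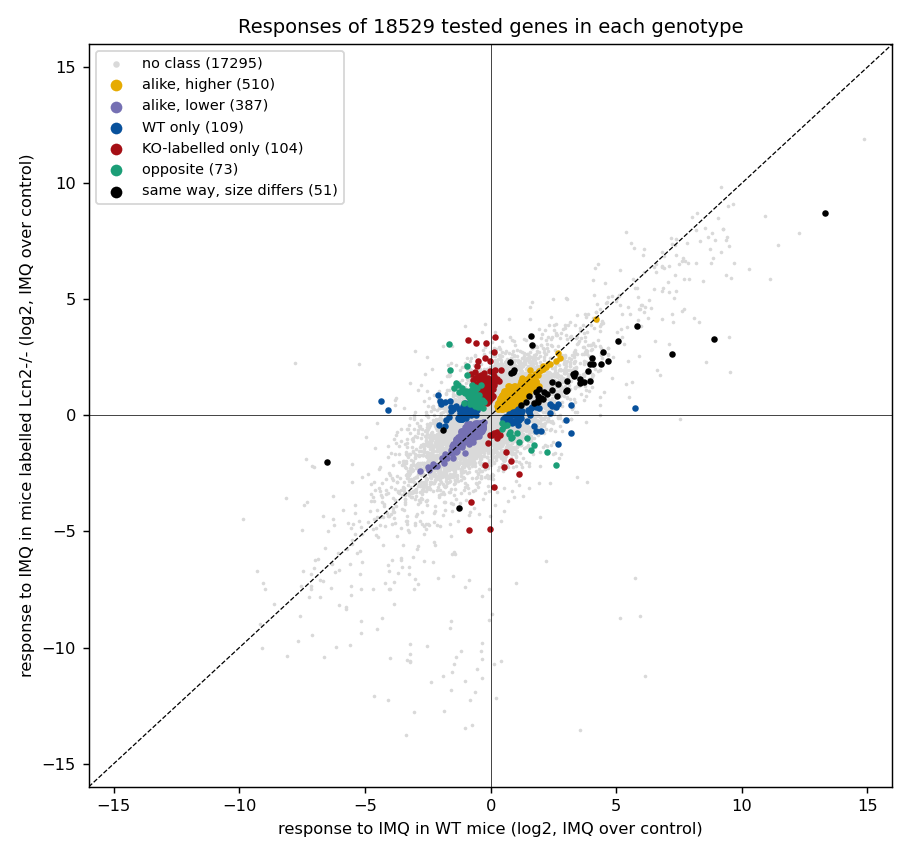
Response to IMQ (log2, IMQ over control) in WT mice (x axis) and in mice labelled Lcn2-/- (y axis) for 18529 tested genes, 1 point a gene, coloured by class with the number of genes in brackets, and the dashed line marks equal responses. The 510 genes alike and higher and the 387 alike and lower lie along the line, the 73 genes with opposite responses lie at the upper left and lower right, and the Lcn2-/- falls of the hair keratins (median -10.07) lie far below the line.

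A gene was placed in a class from both responses and their difference. It was called alike where both responses passed in the same direction and the 95% interval of the difference lay within a log2 value of 1, that is 2-fold. This held for 510 genes that rose and 387 that fell, 42.6% and 37.1% of the genes called in both genotypes in that direction. A gene was called as responding in 1 genotype only where its response passed there, the difference passed and the other response had an unadjusted p of 0.05 or more. This gave 109 genes in WT only (56 higher and 53 lower) and 104 in Lcn2-/- only (88 higher and 16 lower). The 95% interval of the other response lay within 2-fold for 89 of the former and 76 of the latter. Both responses passed in opposite directions, and the difference passed, in 73 genes, 58 of which fell in WT mice and rose in mice labelled Lcn2-/-. Both responses passed in the same direction with a different size, and the difference passed, in 51 genes. Of these, 41 of the 48 that rose had the larger rise in WT mice. A further 60 genes passed the test of the difference and met no class, and Tmem50b both passed it (difference -0.66, SE 0.14, adjusted p = 0.0414) and counted as alike.

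The number of genes called depended on single mice. Leaving out WT IMQ mouse 3, Lcn2-/- IMQ mouse 2 or WT IMQ mouse 1 left 2, 3 and 3 genes called in all, and leaving out WT IMQ mouse 2 gave 1927. Without the WT controls 1, 2 and 3 the totals were 22, 113 and 1136, without the Lcn2-/- controls 1, 2 and 3 they were 759, 24 and 24, and without Lcn2-/- IMQ mice 1 and 3 they were 29 and 107. The 398 genes were selected on the same mice, so a kept sign adds no separate support for their calls. Every one of them that could be tested kept the sign of its difference in each of these 12 fits. Cxcr4 (difference 1.73, SE 0.18) and Tpgs1 were called in all 12, 13 genes in at least 9, 39 in at least 6 and 376 in at least 3. Cxcr4, a chemokine receptor, and Tmem50b were named after their values were seen. A correction for GC content left 239 genes called, 218 of them among the 398.

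**Figure D2:**
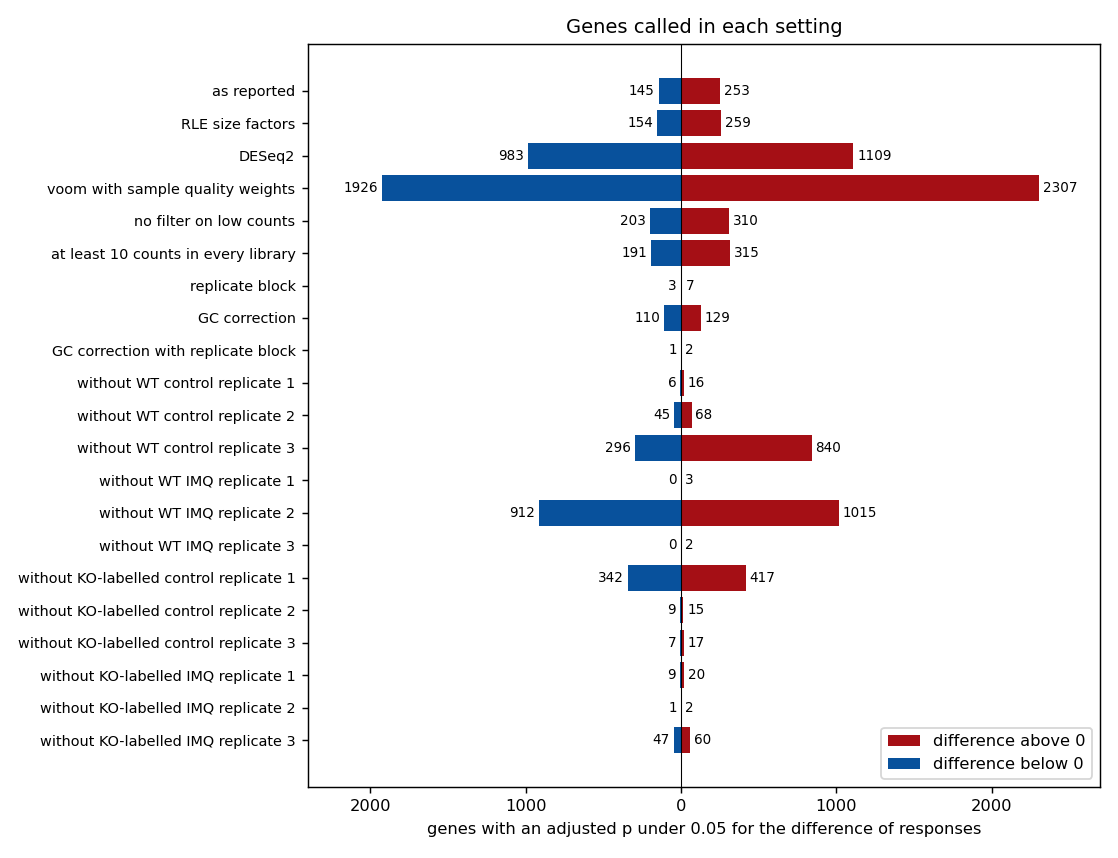
Number of genes with an adjusted p under 0.05 for the difference of responses, above 0 (right) and below 0 (left), as reported and in each other setting or with 1 mouse left out. The bars run from 2 above and 0 below without WT IMQ mouse 3 to 2307 above and 1926 below with voom and sample weights, beside 253 and 145 as reported.

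Among the 510 genes alike and higher, the 6 of at least 1 CPM and an established symbol with the largest rises in both genotypes were Klk9, Glrx, Gsto1, Nccrp1, Nkpd1 and Ctla2a. Klk9, a kallikrein-related peptidase, had 6.47, 4.17 and 8.24 CPM in the WT control mice, 160.2, 96.4 and 88.6 CPM in the WT IMQ mice, 8.11, 6.77 and 7.86 CPM in the Lcn2-/- control mice and 128, 111 and 164 CPM in the Lcn2-/- IMQ mice. Its responses were 4.20 in WT mice and 4.14 in mice labelled Lcn2-/-, and the treated mice of both genotypes lay in 1 range far above all controls. The difference was -0.05 (SE 0.38, adjusted p = 0.951). Glrx, a glutaredoxin, went from 62, 65.5 and 66.4 to 433, 424 and 336 CPM in WT mice and from 69.4, 52.9 and 67.4 to 343, 278 and 348 CPM in mice labelled Lcn2-/-, a difference of -0.27 (SE 0.20, adjusted p = 0.433). Gsto1, a glutathione transferase, responded by 2.28 and 2.23, Nccrp1 by 2.75 and 2.47, Nkpd1 by 2.68 and 2.67, and Ctla2a by 2.35 and 2.22 in the same order.

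Among the 387 genes alike and lower, the 6 so filtered with the largest falls in both genotypes were Cers5, Acox3, Ldah, Tnmd, Trim2 and Gk5. Cers5, a ceramide synthase, fell from 310, 369.8 and 384 to 45.7, 59.7 and 45.8 CPM in WT mice and from 317, 243 and 324 to 50.9, 60.6 and 57.4 CPM in mice labelled Lcn2-/-, with a difference of 0.43 (SE 0.22, adjusted p = 0.246). Treated mice of the 2 genotypes overlapped and all lay below every control. Acox3, a peroxisomal oxidase of branched fatty acids, had responses of -2.28 and -2.09, and Ldah, a hydrolase of lipid droplets, of -2.49 and -2.24. Tnmd (-2.45 and -2.33), Trim2 (-2.26 and -2.16) and Gk5, a glycerol kinase (-2.13 and -2.17), fell by similar amounts. Of 16 glycolysis genes 7 were alike. Beside this, 897 of 18529 genes tested were alike. In the glycolysis list 1 difference (Pfkp) passed, below 0, beside 0.783% of all genes. At an unadjusted p under 0.05 there were 3, by DESeq2 3 and by voom 5, all below 0.

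Neutrophil genes rose in both genotypes. Of 14 tested neutrophil markers 13 rose in WT mice, beside 14.2% of all genes, and 14 in mice labelled Lcn2-/-, beside 14.1%. The responses had medians of 5.43 and 5.32, and the median difference was -0.31 beside -0.02 over all genes. That median turned to 0.46 without Lcn2-/- control 3 and was -0.59 without WT control 1. By edgeR 0 differences passed, 2 had an unadjusted p under 0.05, DESeq2 called 1 and voom 0. S100a9, a calprotectin subunit, responded by 9.40 and 7.68 (difference -1.71, SE 0.65, adjusted p = 0.147). None of the 14 met the criterion for alike either, so equal responses were not shown. In whole skin, fewer cells of a type and less RNA per cell cannot be told apart.

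Cornified envelope genes rose in both genotypes too. Of 26 small proline-rich and late cornified envelope genes 23 rose in WT mice, beside 14.2% of all genes. In mice labelled Lcn2-/- 21 rose, beside 14.1% of all genes. In each genotype 2 fell, and the medians of the responses were 6.66 and 4.81. The median of the difference taken gene by gene was -0.43, and ran from -0.64 to -0.16 with each mouse left out. Among them 0 differences passed by edgeR, 4 had an unadjusted p under 0.05 (all below 0), DESeq2 called 2 and voom 1. Krt16, a stress keratin of thickened epidermis, had 26.4, 10.5 and 25.5 CPM in the WT control mice, 6536, 3401 and 5164 CPM in the WT IMQ mice, 32.1, 49.9 and 25.4 CPM in the Lcn2-/- control mice and 2110.5, 1564 and 2612 CPM in the Lcn2-/- IMQ mice. The treated WT mice lay above all treated Lcn2-/- mice, and the difference was -2.05 (SE 0.53, adjusted p = 0.0651), which did not pass. Krt6a (-1.76, SE 0.53, adjusted p = 0.0888), its partner, and Krt14 (-0.81, SE 0.34, adjusted p = 0.173), the basal layer keratin, also missed the threshold. Differences were below 0 in sign for all 5 stress keratins, with a median of -1.49, and 0 passed by edgeR, whereas 3 had an unadjusted p under 0.05 and DESeq2 and voom each called 3. Tnfrsf12a, which encodes the TWEAK receptor Fn14, responded by 1.66 in WT mice and 0.58 in mice labelled Lcn2-/- (difference -1.08, SE 0.27, adjusted p = 0.0597), and Tnfsf12, which encodes TWEAK, by -0.54 and 1.22 (difference 1.77, SE 0.44, adjusted p = 0.0598). Neither difference passed, nor did those of Il6 (-3.22, SE 1.12, adjusted p = 0.117), Il23a (-2.30, SE 0.78, adjusted p = 0.11), Tnf (-1.61, SE 0.61, adjusted p = 0.143), Krt5 (-0.64, SE 0.32, adjusted p = 0.243), Krt10 (-0.34, SE 0.46, adjusted p = 0.689), Krt1 (-0.58, SE 0.47, adjusted p = 0.471), Krt17 (-1.43, SE 0.45, adjusted p = 0.0958), Krt6b (-1.22, SE 1.09, adjusted p = 0.517), Ly6g (-0.36, SE 1.32, adjusted p = 0.868) or Lcn2 itself (-2.36, SE 0.56, adjusted p = 0.0552).

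Differences below 0 included members of the IL-17 and IL-23 axis. Of 13 tested genes of the IL-17 and IL-23 axis 4 (Il17f, Il17c, Zc3h12a and Nfkbiz) passed below 0, beside 0.783% of all genes below 0, with 6 below 0 at an unadjusted p under 0.05, 4 by DESeq2 and 6 by voom. In this list 3 were above 0 in sign. Il17d, a family member outside the list, passed above 0 (difference 2.97, SE 0.65, adjusted p = 0.0431). Il17f, a T cell cytokine that acts on keratinocytes, had 0.185, 0.172 and 0.106 CPM in the WT control mice, 2.91, 5.51 and 2.86 CPM in the WT IMQ mice, 0.821, 1.55 and 1.12 CPM in the Lcn2-/- control mice and 2.38, 2.4 and 2.1 CPM in the Lcn2-/- IMQ mice. All WT controls lay below all Lcn2-/- controls, and the treated WT mice lay above the treated Lcn2-/- mice, the lowest of them at 2.86 CPM. The difference was -3.54 (SE 0.58, adjusted p = 0.0223), from responses of 4.53, which passed, and 0.99, which did not (adjusted p = 0.0628). Il17c, the epithelial member, held 2 reads in the WT controls together and 105 in the treated WT mice, a ratio of 64.3 (95% interval 17.8 to 531, counting error only), against 0.263, 0.107 and 0.0893 CPM in Lcn2-/- controls and 0.244, 0.117 and 0.24 CPM after IMQ. The fitted difference, -5.44 (adjusted p = 0.0249), depends on the prior count at so few reads. Zc3h12a, which encodes the RNase Regnase-1 that degrades cytokine transcripts, had 19.2, 28.5 and 21.3 CPM in the WT control mice, 152, 152 and 131 CPM in the WT IMQ mice, 46.2, 47.1 and 58.6 CPM in the Lcn2-/- control mice and 106, 76.7 and 90.5 CPM in the Lcn2-/- IMQ mice. It rose in both genotypes, less in mice labelled Lcn2-/-, which began higher, and the difference was -1.81 (SE 0.24, adjusted p = 0.017).

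Nfkbiz is in that list, but it and the NF-kB and feedback genes Bcl3, Nod2, Rel and Card14 were picked after their values were seen. Of 8 NF-kB and IL-17 feedback genes listed at that stage, 6 passed below 0, beside 0.783% of all genes. That share measures no excess, and 1 of the 8 was above 0 in sign and 1 met the criterion for alike. Nfkbiz, which encodes the IL-17-induced coactivator IkB-zeta, had 31.7, 51 and 21.4 CPM in the WT control mice, 176, 198 and 162 CPM in the WT IMQ mice, 60.2, 56.9 and 97 CPM in the Lcn2-/- control mice and 115, 82.1 and 102 CPM in the Lcn2-/- IMQ mice. It met the criteria for WT only, with responses of 2.36 and 0.49 and a difference of -1.88 (SE 0.40, adjusted p = 0.0432). Bcl3, a nuclear IkB protein, responded by 3.03 and 1.08 (difference -1.96, SE 0.33, adjusted p = 0.0246), and Nod2, a sensor of bacterial cell wall, by 2.50 and 0.54 (difference -1.96, SE 0.27, adjusted p = 0.017). For all 3 genes every WT control lay below every Lcn2-/- control, by a narrow gap for Bcl3, whose highest WT control had 9.15 CPM and lowest Lcn2-/- control 9.59 CPM. Rel, a transactivating NF-kB subunit, responded by 0.68 and -0.17 (difference -0.85, SE 0.16, adjusted p = 0.0304). Card14, an adaptor upstream of NF-kB in keratinocytes, met the criteria for Lcn2-/- only, falling from 19.7, 17.9 and 23.9 to 12.8, 11.4 and 9.83 CPM, whereas WT mice had 15.2, 13.8 and 16.5 CPM before IMQ and 24.1, 15 and 20.4 CPM after it (difference -1.24, SE 0.27, adjusted p = 0.0433). Tnfaip6, which binds hyaluronan at sites of inflammation, was among the 5 largest rises in WT only, at 2.68 against 0.47 (difference -2.20, SE 0.47, adjusted p = 0.0431). Between controls (Lcn2-/- minus WT) Tnfaip6 differed by 1.29 and between treated mice, which overlapped, by -0.91.

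Some EGF receptor ligands and some genes of the IL-1 and IL-36 family also had differences below 0. Of 7 EGF receptor ligands 2 passed below 0 (Areg and Epgn), beside 0.783% of all genes, and 1 was above 0 in sign. That list was chosen after values were seen, so the share beside it measures no excess. Areg, which encodes the growth factor amphiregulin, had 5.45, 3.27 and 4.73 CPM in the WT control mice, 53.3, 57.3 and 65.1 CPM in the WT IMQ mice, 5.71, 8.74 and 4.96 CPM in the Lcn2-/- control mice and 18.2, 17.1 and 17.1 CPM in the Lcn2-/- IMQ mice. Controls of the genotypes overlapped, and the treated WT mice all lay above the treated Lcn2-/- mice. The responses were 3.71 (SE 0.22, adjusted p = 2.1e-06) and 1.44 (SE 0.22, adjusted p = 0.00115), and the difference was -2.27 (SE 0.31, adjusted p = 0.017). Epgn, which encodes epigen, another ligand of that receptor, went from 7.76, 12.4 and 5.8 to 228, 226 and 218 CPM in WT mice and from 18.3, 19.5 and 11.8 to 76.6, 102 and 70 CPM in mice labelled Lcn2-/- (difference -2.36, SE 0.36, adjusted p = 0.0195). Of 14 tested IL-1 and IL-36 genes 12 rose in WT mice, beside 14.2% of all genes, and 10 rose in mice labelled Lcn2-/-, beside 14.1%. In this list 3 differences passed below 0, beside 0.783% of all genes, 2 were above 0 in sign, and 6 were below 0 at an unadjusted p under 0.05, 5 by DESeq2 and 6 by voom. Il1f6, the gene of IL-36 alpha, had 7.39, 5.07 and 8.99 CPM in the WT control mice, 283, 258 and 173 CPM in the WT IMQ mice, 18.3, 18.7 and 16.9 CPM in the Lcn2-/- control mice and 209, 171 and 122 CPM in the Lcn2-/- IMQ mice, and the difference was -1.84 (SE 0.34, adjusted p = 0.0311). Its treated groups overlapped, and its Lcn2-/- controls all lay above the WT controls. Il1a rose by 3.33 and 1.70 (difference -1.63, SE 0.31, adjusted p = 0.031) and Il1rn, which encodes the IL-1 receptor antagonist, by 1.88 and 0.59 (difference -1.29, SE 0.26, adjusted p = 0.0375). Osmr, a receptor chain for oncostatin M and IL-31, met the criteria for WT only (1.64 against 0.37, difference -1.27, SE 0.28, adjusted p = 0.0436).

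Some serpins and gasdermins were also among the genes below 0, and of these Serpinb2, Serpinb3b and Gsdmc were picked after their values were seen. Serpinb3a, a protease inhibitor of the squamous cell carcinoma antigen family, held 3 reads in the 3 WT controls together and 28236 in the treated WT mice, a ratio of 11500 (95% interval 3940 to 55900, counting error only). In mice labelled Lcn2-/- it went from 0.624, 0.906 and 0.581 to 419, 146 and 308 CPM, and the fitted difference of -4.61 (adjusted p = 0.0249) rests on the few WT control reads. Serpinb3b, a near copy that may share reads with it, responded by 5.81 and 3.87 (difference -1.95, SE 0.39, adjusted p = 0.0375), and Serpinb2, the inhibitor PAI-2, by 3.57 and 1.57 (difference -2.00, SE 0.29, adjusted p = 0.0188). Gsdma3, a pore-forming gasdermin of the hair follicle and upper epidermis, had 8.78, 11.6 and 14 CPM in the WT control mice, 5.09, 4.23 and 5.18 CPM in the WT IMQ mice, 17.8, 13.1 and 23 CPM in the Lcn2-/- control mice and 1.22, 1.23 and 0.899 CPM in the Lcn2-/- IMQ mice. It fell in both genotypes and fell further in mice labelled Lcn2-/-, whose treated mice lay below all treated WT mice (difference -2.76, SE 0.36, adjusted p = 0.017). Gsdmc rose by 4.47 and 2.73 (difference -1.74, SE 0.39, adjusted p = 0.0467) and Gsdmc2, which is similar in sequence, by 3.19 in WT only (0.45 in the other genotype, difference -2.74, SE 0.61, adjusted p = 0.0447). The WT-only rises also held Serpina3f (3.00 against -0.22), Mroh3 (3.19 against -0.76) and Zfp92 (2.60 against 0.37), and, with a smaller response, the glycolytic enzyme Pfkp (1.25 against 0.17, difference -1.08, SE 0.22, adjusted p = 0.0402). Between controls (Lcn2-/- minus WT) Gsdmc2 differed by 1.97, Serpina3f by 1.95, Mroh3 by 1.24 and Zfp92 by 0.84. Between treated mice the values were -0.77, -1.27, -2.71 and -1.39 in that order, and the treated groups of Gsdmc2 overlapped.

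**Figure D3:**
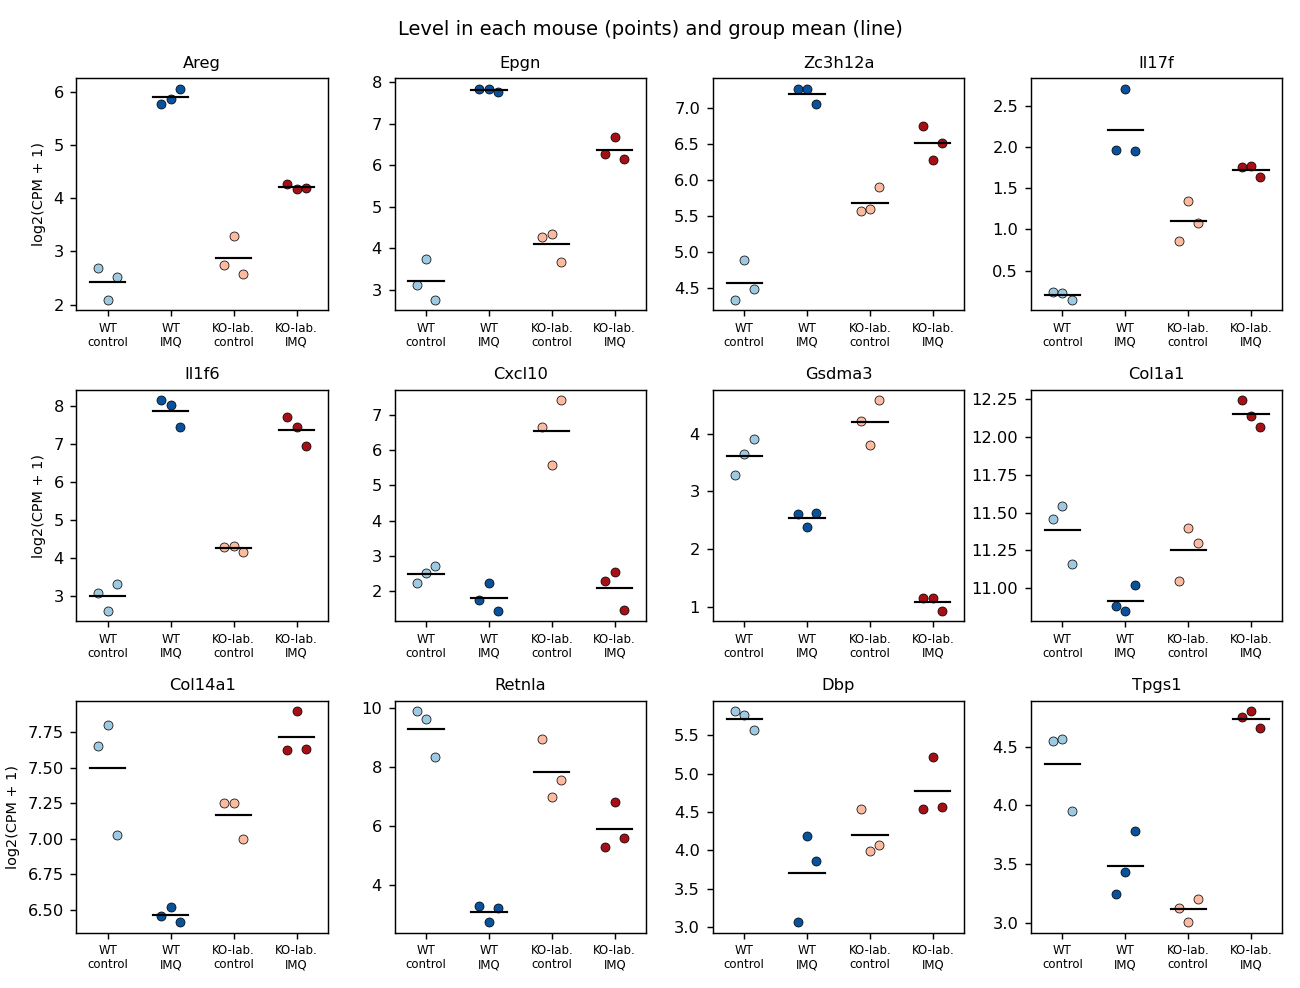
Level of 12 genes in each of 12 mice as log2(CPM + 1), 1 point a mouse, with a line at the mean of the 3 mice of each group. Areg, Epgn, Zc3h12a, Il17f and Il1f6 climb further in WT mice, Cxcl10 is high in the 3 Lcn2-/- controls alone, and Col1a1, Col14a1 and Tpgs1 fall in WT mice and rise in mice labelled Lcn2-/-.

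For some genes the genotypes stood further apart in the control mice than in the treated mice. Cxcl10, a chemokine that draws T cells and is switched on by interferon, had 3.65, 4.64 and 5.58 CPM in the WT control mice, 2.36, 3.63 and 1.7 CPM in the WT IMQ mice, 99.7, 46.9 and 171 CPM in the Lcn2-/- control mice and 3.91, 4.79 and 1.74 CPM in the Lcn2-/- IMQ mice. The Lcn2-/- controls stood above all other mice, none of which passed 5.58 CPM, and the treated groups overlapped. The fall in mice labelled Lcn2-/- was -4.93 (SE 0.46, adjusted p = 0.000114), the WT response was -0.87 (SE 0.49, adjusted p = 0.213), and the difference was -4.06 (SE 0.68, adjusted p = 0.0247). Between controls the gene differed by 4.52 and between treated mice by 0.46, values that share libraries with the difference of responses. Mx1, an antiviral GTPase, showed the same order, with 59.5, 43.3 and 121 CPM in Lcn2-/- controls, 8.6, 15.2 and 3.72 CPM in WT controls and between 4.17 and 6.85 CPM in all treated mice (difference -2.94, SE 0.67, adjusted p = 0.0498).

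Over 23 interferon-stimulated genes the responses had medians of -1.79 in WT mice and -1.82 in mice labelled Lcn2-/-, and the median of the difference taken gene by gene was -0.65. It ran from -1.16 to -0.25 with each mouse left out. For 2 of them, Cxcl10 and Mx1, the difference passed below 0, beside 0.783% of all genes, and 7 were below 0 at an unadjusted p under 0.05, 5 by DESeq2 and 5 by voom. The summed level of the list was between 777 and 2156 CPM in the Lcn2-/- controls, between 191 and 754 CPM in the WT controls, and between 151 and 313 CPM in all treated mice. The median difference between controls was 1.82. Across all genes, 2 passed an adjusted p of 0.05 between the controls by edgeR and 1223 had an unadjusted p under 0.05, while 886 passed between the treated groups. Of the 398 genes with different responses, 72 differed more between controls than between treated mice. Ccl20, the chemokine that attracts IL-17-producing cells, met the criteria for Lcn2-/- only: it was 11.4, 8.74 and 16.1 CPM in those controls and 1.53, 2.34 and 0.36 CPM after IMQ, whereas WT mice had 5.91, 7.57 and 4.04 CPM before IMQ and 6.24, 8.54 and 4.6 CPM after it (difference -3.23, SE 0.67, adjusted p = 0.0423). Its Lcn2-/- controls lay above, and its treated Lcn2-/- mice below, all WT mice.

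All 20 listed fibroblast and collagen genes had differences above 0 in sign and 5 passed (Col1a1, Col1a2, Col3a1, Col5a1 and Sparc), beside 1.37% of all genes tested, with 19 at an unadjusted p under 0.05, 14 by DESeq2 and 19 by voom. Col3a1 and Sparc, named here to complete that count, had differences of 1.36 (SE 0.31, adjusted p = 0.0484) and 1.10 (SE 0.22, adjusted p = 0.0380). In WT mice 8 of the 20 fell, beside 14.3% of all genes, and none rose. In mice labelled Lcn2-/- 10 rose, beside 14.1% of all genes, and none fell. Col1a1, the main chain of type I collagen, had 2807, 2978 and 2291 CPM in the WT control mice, 1889, 1847 and 2077 CPM in the WT IMQ mice, 2122, 2701 and 2518 CPM in the Lcn2-/- control mice and 4839, 4506 and 4283 CPM in the Lcn2-/- IMQ mice. Controls overlapped, treated WT mice lay below every other mouse, and treated Lcn2-/- mice lay above every other mouse. The responses were -0.47 (SE 0.15, adjusted p = 0.0333) and 0.89 (SE 0.15, adjusted p = 0.00181), and the difference was 1.37 (SE 0.21, adjusted p = 0.0195). Col1a2, the partner chain, behaved the same way, at -0.81 and 0.50 (difference 1.31, SE 0.23, adjusted p = 0.0262), and Col5a1, of type V collagen, rose in Lcn2-/- only (-0.36 against 1.16, difference 1.52, SE 0.29, adjusted p = 0.0312).

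Enzymes and carriers that assemble collagen and elastic fibres were picked after their values were seen, and all 15 so picked had passed. Col14a1, a collagen on the surface of fibrils, had 201, 222 and 129.5 CPM in the WT control mice, 86.7, 91 and 84.3 CPM in the WT IMQ mice, 152, 152 and 127 CPM in the Lcn2-/- control mice and 197, 237 and 197 CPM in the Lcn2-/- IMQ mice. It fell in WT mice and rose in mice labelled Lcn2-/- (difference 1.63, SE 0.25, adjusted p = 0.0194). Mfap2, of elastic microfibrils, ran from 56.1, 39.8 and 51.6 to 29.2, 36.6 and 32.4 CPM in WT mice and from 42.4, 43.5 and 38 to 70.2, 76.5 and 56.5 CPM in mice labelled Lcn2-/- (difference 1.30, SE 0.22, adjusted p = 0.0246). Loxl1, which cross-links elastin, was among the 5 largest rises in Lcn2-/- only, from 64.6, 34.3 and 38.4 to 149, 217 and 227 CPM, whereas WT mice had 93.3, 172 and 47.9 CPM before IMQ and 59.5, 80.9 and 73.1 CPM after it (difference 2.66, SE 0.54, adjusted p = 0.041). Eln, elastin, and Cthrc1, a secreted protein of activated fibroblasts, rose in both genotypes and more in mice labelled Lcn2-/-, by 0.93 and 1.96 and by 1.65 and 3.01. Mmp2 (difference 1.36), a gelatinase, Tgfb1 (1.56), the cytokine that raises collagen synthesis, and Mrc2 (1.27), a collagen uptake receptor, rose in Lcn2-/- only, as did Emilin1 (1.13) and Fkbp10 (0.97). Rcn3 (1.40), Serpinh1 (0.97), the collagen chaperone, and Ltbp4 (1.11) fell in WT only. Pcolce (1.19) and Col16a1 (0.92) went opposite ways.

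The summed level of the 20 fibroblast and collagen genes was between 29930 and 31540 CPM in the treated Lcn2-/- mice, between 15680 and 16820 CPM in the treated WT mice, between 16520 and 18410 CPM in the Lcn2-/- controls and between 15550 and 24880 CPM in the WT controls. The median difference of the list ran from 0.85 to 1.12 with each mouse left out in turn and was 0.95 after a correction for GC content. Genes above 0 had a median GC content of 55.7%, those below 0 47.0% and all tested genes 49.6%. With the correction 123 of the 253 genes above 0 and 95 of the 145 below 0 stayed called. Of the 15 genes picked for collagen and elastic fibre assembly, only Col14a1, Mfap2, Rcn3 and Cthrc1 were among them. The others had an adjusted p from 0.0512 (Tgfb1) to 0.103 (Ltbp4) with the correction, for example 0.0858 for Eln. Col5a1 was also lost (adjusted p = 0.0521), whereas Col1a1 (0.0348) and Col1a2 (0.0457) stayed called. Losses were not confined to matrix genes, and 41 of the 70 named genes with different responses stayed called. Others lost included Ciita (0.0559), Mx1 (0.0563), Tef (0.061), Osmr (0.0563), Il1rn (0.0537), Gsdmc (0.0618) and P2ry6 (0.0607). The part of GC content in the differences was not tested beyond this correction.

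Of 17 tested macrophage markers 4 rose in WT mice, beside 14.2% of all genes, and 12 in mice labelled Lcn2-/-, beside 14.1%. In each genotype 2 fell, beside 14.3% of all genes in WT mice and 11.2% in the others. The median responses were 0.09 and 1.74, and 15 differences were above 0 in sign, of which 1 passed, beside 1.37% of all genes. At an unadjusted p under 0.05 there were 10 above 0, by DESeq2 8 and by voom 10, and the median difference, 1.82, ran from 1.01 to 2.18 with each mouse left out. The gene that passed was Retnla, a secreted protein of alternatively activated macrophages, which fell in both genotypes. It had 939.6, 780 and 322 CPM in the WT control mice, 8.72, 5.65 and 8.19 CPM in the WT IMQ mice, 494, 123 and 185 CPM in the Lcn2-/- control mice and 38, 112 and 47.1 CPM in the Lcn2-/- IMQ mice. The fall was -6.50 (SE 0.57, adjusted p = 7.0e-05) in WT mice and -2.03 (SE 0.55, adjusted p = 0.0233) in mice labelled Lcn2-/-, a difference of 4.47 (SE 0.79, adjusted p = 0.0296), and the treated WT mice lay below all treated Lcn2-/- mice. Cd68 (1.99, SE 0.52, adjusted p = 0.0679), a lysosomal protein of macrophages, and Csf1r (1.99, SE 0.53, adjusted p = 0.0698), their growth factor receptor, missed the threshold. The summed level of the list was between 1734 and 7159 CPM in the WT controls alone, a wider range than in any other group.

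The receptor genes Ptafr, Crlf2 and P2ry6 were among those named with differences above 0. Ptafr, the receptor for platelet-activating factor, had 51.9, 74.4 and 17.1 CPM in the WT control mice, 24.1, 25.4 and 25.4 CPM in the WT IMQ mice, 20.8, 11.5 and 11.8 CPM in the Lcn2-/- control mice and 50.7, 72 and 56.4 CPM in the Lcn2-/- IMQ mice (difference 2.96, SE 0.58, adjusted p = 0.0375). WT controls spread from 17.1 to 74.4 CPM, and treated Lcn2-/- mice lay above both their controls and the treated WT mice. Crlf2, the receptor chain for TSLP, ran from 4.96, 3.78 and 5.05 to 19.3, 23.3 and 27 CPM in mice labelled Lcn2-/- (difference 2.83, SE 0.48, adjusted p = 0.0247). P2ry6, a receptor for UDP, rose in that genotype by 2.33 against -0.01 in WT mice (difference 2.34, SE 0.53, adjusted p = 0.0498), Nfe2 by 2.71 against 0.13 (difference 2.58, SE 0.59, adjusted p = 0.0477) and Tmem37 by 2.49 against -0.22 (difference 2.71, SE 0.59, adjusted p = 0.0437). Between controls (Lcn2-/- minus WT) Crlf2, P2ry6, Nfe2 and Tmem37 differed by between -1.51 (Tmem37) and -1.23 (Nfe2). Between treated mice the values lay between 0.94 (P2ry6) and 1.39 (Crlf2). For Crlf2, P2ry6 and Tmem37 the gap between controls was the larger, and every Lcn2-/- control lay below every WT control. Of 14 Langerhans and dendritic cell markers 9 fell in WT mice, beside 14.3% of all genes, and 4 in mice labelled Lcn2-/-, beside 11.2%. For the difference 1 passed above 0, beside 1.37% of all genes. At an unadjusted p under 0.05 there were 8 above and 1 below, by DESeq2 6 and 1, and by voom 7 and 1. Ciita, the master regulator of MHC class II genes, fell in WT only, from 29.3, 35.2 and 23.1 to 7.51, 9.95 and 8.09 CPM, whereas mice labelled Lcn2-/- had 28.3, 14 and 21.4 CPM before IMQ and 20.6, 17.7 and 17.4 CPM after it (difference 1.58, SE 0.34, adjusted p = 0.0431). H2-Ab1, a target of it, missed the threshold at 2.33 (SE 0.57, adjusted p = 0.0572). Of 15 T cell markers 8 fell in WT mice, beside 14.3% of all genes. In mice labelled Lcn2-/- 1 fell, beside 11.2% of all genes, and 1 rose, beside 14.1%. For the difference 0 passed by edgeR, with 3 at an unadjusted p under 0.05, 1 called by DESeq2 and 3 by voom.

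**Figure D4:**
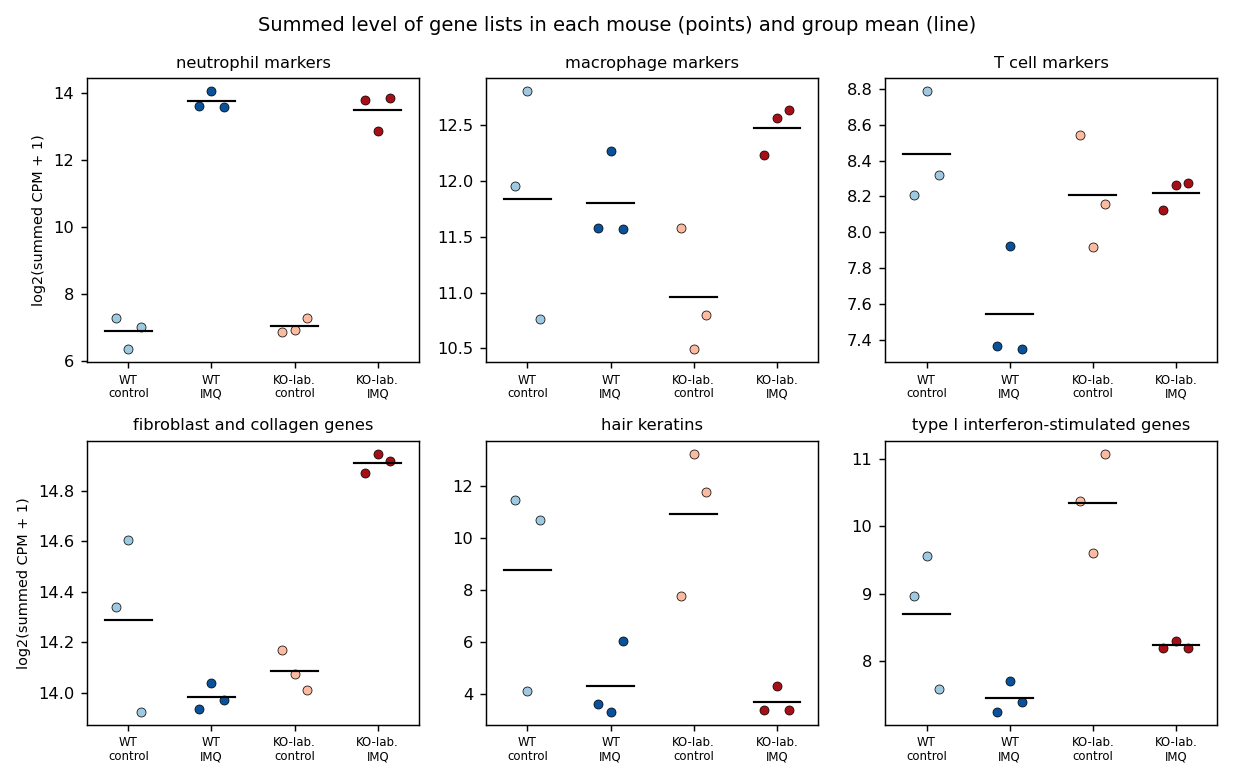
Summed level of 6 gene lists in each of 12 mice as log2(summed CPM + 1), 1 point a mouse, with a line at the mean of the 3 mice of each group. Neutrophil markers rise in both genotypes, the 3 treated Lcn2-/- mice stand at 29930 to 31540 CPM for fibroblast and collagen genes, and the hair keratins and interferon-stimulated genes are spread widely among the controls.

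Of 15 circadian genes 11 differences were above 0 and 4 below 0 in sign. By edgeR 2 passed above 0 and 1 below 0, beside 1.37% and 0.783% of all genes. At an unadjusted p under 0.05 there were 10 above and 3 below, by DESeq2 5 and 3, and by voom 7 and 3. Dbp, a transcription factor that swings strongly over the day, had 55.1, 53.1 and 46.2 CPM in the WT control mice, 7.39, 17.1 and 13.5 CPM in the WT IMQ mice, 22.2, 14.9 and 15.8 CPM in the Lcn2-/- control mice and 22.3, 36.1 and 22.7 CPM in the Lcn2-/- IMQ mice. It fell in WT only, and its WT controls lay above all other mice (difference 2.63, SE 0.40, adjusted p = 0.0195). Tef, of the same family, fell in WT only, with responses of -1.11 and -0.10 (difference 1.00, SE 0.22, adjusted p = 0.044). Arntl, the core clock gene that runs opposite in phase to Dbp, went from 16.1, 10.4 and 15.5 to 26.8, 18.1 and 23.9 CPM in WT mice and from 27.8, 26.1 and 29.7 to 18.4, 17.4 and 11.6 CPM in mice labelled Lcn2-/- (difference -1.53, SE 0.31, adjusted p = 0.038). The hour at which each mouse was sampled is not given in the sources used here, and its part was not tested.

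The largest differences above 0 also held genes of other roles. Tpgs1, a subunit of the tubulin polyglutamylase complex, had 22.4, 22.7 and 14.5 CPM in the WT control mice, 8.48, 9.81 and 12.7 CPM in the WT IMQ mice, 7.75, 7.03 and 8.22 CPM in the Lcn2-/- control mice and 25.9, 26.9 and 24.2 CPM in the Lcn2-/- IMQ mice. It fell in WT mice and rose in mice labelled Lcn2-/-, its controls did not overlap between genotypes, and neither did its treated groups (difference 2.68, SE 0.28, adjusted p = 0.00695). Eva1b (3.08, SE 0.37, adjusted p = 0.017) and Ppp1r35 (2.76, SE 0.49, adjusted p = 0.0268), a centriole protein gene, went opposite ways too. Mrps34, of the mitochondrial ribosome, ran from 7.39, 4.26 and 3.19 to 3.03, 2.02 and 2.76 CPM in WT mice and from 1.02, 1.92 and 1.7 to 6.78, 9.7 and 9.41 CPM in mice labelled Lcn2-/- (difference 3.42, SE 0.49, adjusted p = 0.0188). Among all 77 tested mitochondrial ribosomal genes, grouped by symbol after values were seen, 3 passed above 0, beside 1.37% of all genes. The median difference was 0.06 and ran from 0.01 to 0.14 with each mouse left out. Il17d (2.97, SE 0.65, adjusted p = 0.0431) fell in WT only, unlike Il17f and Il17c, and so did Glt8d2 (2.49, SE 0.42, adjusted p = 0.0247), Grb14 (1.64, SE 0.35, adjusted p = 0.0431) and Ccdc8 (1.37, SE 0.31, adjusted p = 0.045). The histone gene Hist1h4h (2.69, SE 0.51, adjusted p = 0.0311) and the heat-shock gene Hspa1b (1.11, SE 0.20, adjusted p = 0.0288), a near copy of Hspa1a, were above 0. Below 0 stood Otop2 (-4.73, SE 1.08, adjusted p = 0.0463), a proton channel gene whose Lcn2-/- controls ran from 0.361 to 4.48 CPM, and, falling in Lcn2-/- only, Ano9 (-1.91, SE 0.37, adjusted p = 0.0337), Olfr56 (-2.76, SE 0.64, adjusted p = 0.0498) and Plet1os (-2.80, SE 0.63, adjusted p = 0.0463), an antisense transcript.

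Hair keratins had median responses of -2.79 in WT mice and -10.07 in mice labelled Lcn2-/-. Of the 20 tested, 5 fell and 1 rose in WT mice, beside 14.3% and 14.2% of all genes. In mice labelled Lcn2-/- 19 fell, beside 11.2% of all genes. For the difference 0 passed by edgeR, 5 had an unadjusted p under 0.05, DESeq2 called 3 and voom 0. The median difference, -5.65, ran from -6.57 to -3.06 with each mouse left out. Krt34, a hair cuticle and cortex keratin, was counted at 0, 139 and 20.2 CPM in the Lcn2-/- controls and 1.48, 0 and 0.319 CPM in the WT controls. Mitotic genes (medians -0.07 and -0.60, 20 tested) and S-phase genes (-0.19 and -0.51, 18 tested) held 0 differences that passed by edgeR, at an unadjusted p under 0.05, by DESeq2 or by voom. The 20 ribosomal protein genes (0.16 and 0.17) held 0 by edgeR, 2 at an unadjusted p under 0.05, 2 by DESeq2 and 3 by voom. Endothelial (0.56 and 0.99), mast cell (0.36 and 1.03), skeletal muscle (-1.26 and -0.57), adipocyte (-0.86 and -0.39), sebaceous (-2.04 and -1.76) and melanocyte (-1.55 and -1.90) markers held 0 by edgeR, and at an unadjusted p under 0.05 they held 5, 3, 3, 1, 1 and 0 in that order, with 3, 0, 1, 0, 0 and 0 called by DESeq2 and 6, 3, 1, 3, 2 and 0 by voom. Csf3, the neutrophil growth factor, was counted at 0 in all 3 WT controls and at 239 reads over the treated WT mice, at least 97.6-fold higher against a floor of 3 counts over the group, and its difference did not pass (adjusted p = 0.0952).

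**Figure D5:**
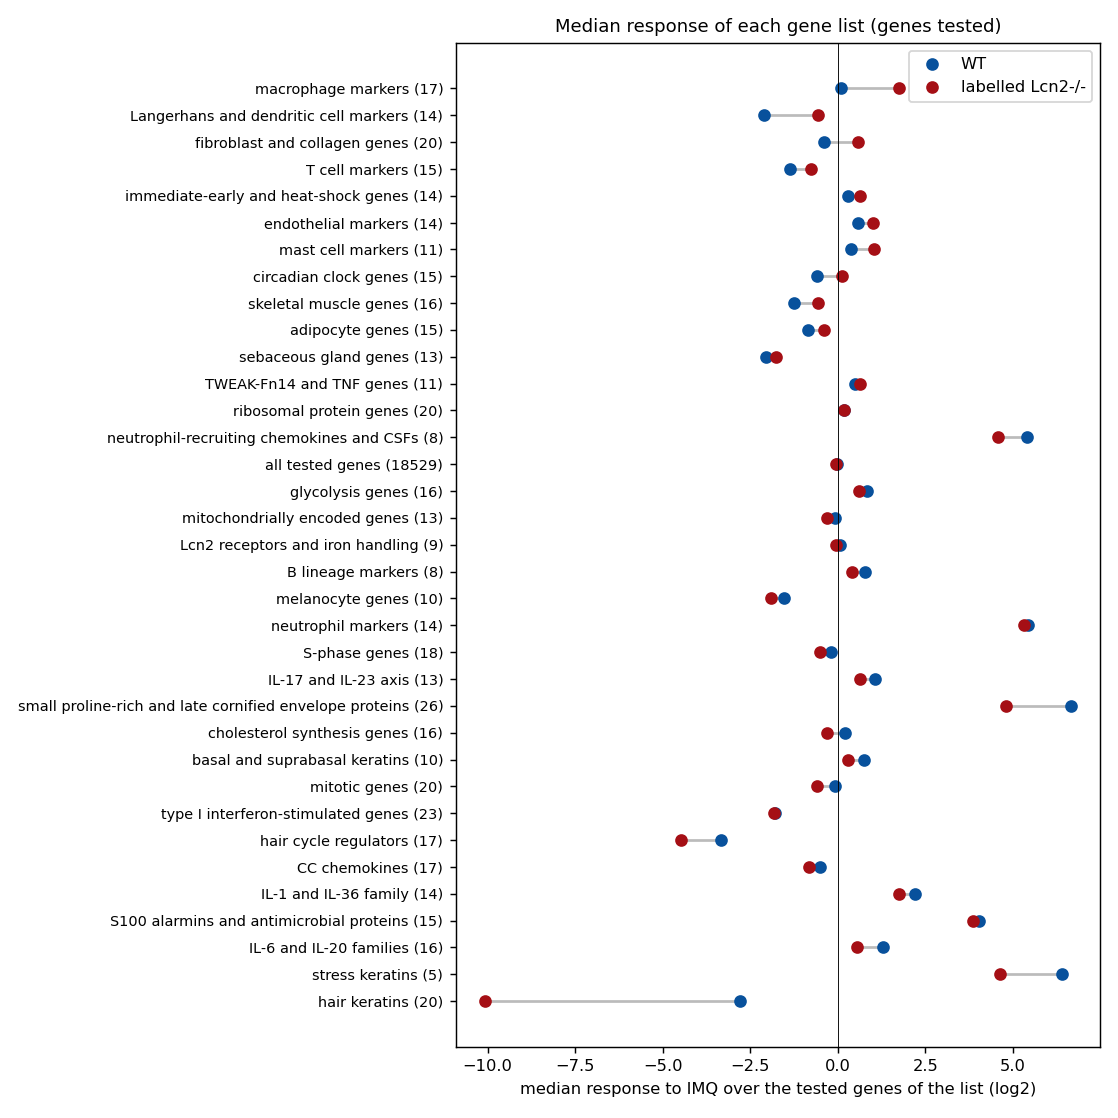
Median response to IMQ (log2) over the tested genes of 34 gene lists and of all tested genes, in WT mice (blue) and in mice labelled Lcn2-/- (red), sorted by the median difference, with the number of genes tested in brackets. Macrophage markers stand at 0.09 and 1.74, fibroblast and collagen genes at -0.40 and 0.57, stress keratins at 6.39 and 4.62 and hair keratins at -2.79 and -10.07.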

How the data were processed

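Back skin RNA of 12 mice was sequenced as paired reads of 150 bp. The authors deposited 1 table of raw counts, whole numbers of reads per Ensembl gene and library. The submitters' processing notes name HISAT and mm8, and counting settings and strand are not given in the sources used here. Names came from GENCODE M21 (GRCm38) for 52073 identifiers (91.5%), and identifiers without a match held 0.567% of the counts. Near-identical genes may share reads, and without strand a gene and its antisense partner cannot be told apart.

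Genes passing filterByExpr (minimum count 10, minimum total 15) were normalized by TMM and fitted with the quasi-likelihood test of edgeR 4.0.16 (limma 3.58.1, R 4.3.3) as 4 group means. The common biological coefficient of variation was 0.253. Standard errors and 95% intervals are Wald values. CPM are relative to normalized library sizes. On simulated counts with 200 genes changed 4-fold, the edgeR fit of the difference recovered 72% and 5.88% of its calls were false, and DESeq2 1.42.0 recovered 84.5% with 24.2% false. Apart from the changed genes in the Lcn2-/- IMQ group, each simulated gene had the same mean in all groups. Counts were drawn independently with the dispersions of the edgeR fit. The simulation held no GC trend and no deviations shared by the genes of a mouse, so its rates do not measure false calls in the real libraries. P-values measure the spread between mice that the labels number as separate samples. No pair of libraries within a group agreed within sampling noise. Same-numbered mice did not deviate together.

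The members and gene lists were chosen with earlier results of these data known. The shares of all genes printed beside any of the lists therefore measure no excess. Named were genes the study measured, the 10 largest differences on each side, the 6 largest alike responses and 5 largest 1-genotype responses in each direction (mean at least 1 CPM, with an established symbol), and up to 3 genes per list with the smallest p for the difference. Others are said to be picked afterwards. Genes so named whose difference did not pass are given only in part, and 1 whose difference passed is not reported here. Alternatives were RLE size factors, DESeq2, voom with sample weights, other filters, a replicate block, GC correction (content known for 98.2% of tested genes) and each mouse left out. Figures used matplotlib 3.10.9 (Python 3.11.15).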

Additional observations from a re-analysis of the deposited data

Results flagged for a closer look

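The 70 named genes with a tested difference between genotypes are given here, each with its difference of IMQ responses (log2, Lcn2-/- minus WT, edgeR, adjusted p under 0.05 in each). Differences above 0 among genes that responded in WT only were Il17d (2.97), Dbp (2.63), Glt8d2 (2.49), Grb14 (1.64), Ciita (1.58), Rcn3 (1.40), Ccdc8 (1.37), Ltbp4 (1.11), Tef (1.00) and Serpinh1 (0.97). Differences below 0 among genes that responded in WT only were Il17c (-5.44), Mroh3 (-3.95), Serpina3f (-3.22), Gsdmc2 (-2.74), Zfp92 (-2.23), Tnfaip6 (-2.20), Nfkbiz (-1.88), Osmr (-1.27), Pfkp (-1.08) and Rel (-0.85). Differences above 0 among genes that responded in Lcn2-/- only were Crlf2 (2.83), Tmem37 (2.71), Loxl1 (2.66), Nfe2 (2.58), P2ry6 (2.34), Tgfb1 (1.56), Col5a1 (1.52), Mmp2 (1.36), Mrc2 (1.27), Emilin1 (1.13) and Fkbp10 (0.97). Differences below 0 among genes that responded in Lcn2-/- only were Cxcl10 (-4.06), Ccl20 (-3.23), Mx1 (-2.94), Plet1os (-2.80), Olfr56 (-2.76), Ano9 (-1.91) and Card14 (-1.24). Differences above 0 among genes that responded in opposite directions were Eva1b (3.08), Ppp1r35 (2.76), Tpgs1 (2.68), Col14a1 (1.63), Col1a1 (1.37), Col1a2 (1.31), Mfap2 (1.30), Pcolce (1.19) and Col16a1 (0.92). Differences below 0 among genes that responded in opposite directions were Otop2 (-4.73) and Arntl (-1.53). Differences above 0 among genes that responded the same way with a different size were Retnla (4.47), Cthrc1 (1.37) and Eln (1.03). Differences below 0 among genes that responded the same way with a different size were Serpinb3a (-4.61), Gsdma3 (-2.76), Epgn (-2.36), Areg (-2.27), Serpinb2 (-2.00), Bcl3 (-1.96), Serpinb3b (-1.95), Il1f6 (-1.84), Zc3h12a (-1.81), Gsdmc (-1.74), Il1a (-1.63) and Il1rn (-1.29). Differences above 0 among genes that met no class were Mrps34 (3.42), Ptafr (2.96), Hist1h4h (2.69) and Hspa1b (1.11). Differences below 0 among genes that met no class were Il17f (-3.54) and Nod2 (-1.96). The test of the difference itself marked them out. Of the 70, 14 were called in at least 6 of the 12 fits that left out 1 mouse, and 41 were called after GC correction. Serpinb3a and Il17c rest on 3 and 2 reads in the WT controls.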

How the results depend on the processing

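Every one of the 398 genes with different responses that could be tested kept its sign in all 20 other fits, but the number called moved. Those fits reuse the mice on which the genes were selected, so the kept signs add no separate support. DESeq2 called 1109 genes above 0 and 983 below 0, with 780 in WT only and 658 in Lcn2-/- only. Voom with sample weights called 2307 and 1926, with 850 alike higher, 744 alike lower, 1607 in WT only and 1065 in Lcn2-/- only. GC correction gave 129 above 0, 59 in WT only and 43 in Lcn2-/- only. An unadjusted p under 0.05 with a difference beyond 2-fold gave 1122 and 909. An interval within 1.5-fold left 218 alike higher and 134 alike lower. The cause of these changes was not tested, apart from the narrower interval of the last. With 1 mouse left out the counts ran from 2 to 1015 above 0, 0 to 912 below 0, 329 to 554 alike higher, 185 to 439 alike lower, 0 to 725 in WT only and 0 to 433 in Lcn2-/- only.

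Replicate numbers in the labels did not pair the mice. Deviations of same-numbered mice from their group means had correlations between -0.555 and 0.199 (18 pairs, mean -0.0507, 1 over 0.1), and a mouse correlated best with its own number in 5 of 18 comparisons. A fit with the replicate block called 7 genes above 0 and 3 below 0, with 247 alike lower, 1 in WT only and 0 in Lcn2-/- only. GC correction with the replicate block gave 2, 1, 239, 0 and 0 in the same order. A lost call under the block is not read as a weaker effect. RLE size factors and both filters moved no count by over 1.5 times. The median difference over all genes was between -0.08 and 0.01 in every fit.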

Other observations

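Nuclear genes of the respiratory chain were grouped by the start of their symbols after values were seen, so the shares beside them measure no excess. Among 94 tested, 6 differences passed above 0 and 0 below by edgeR, beside 1.37% and 0.783% of all genes. At an unadjusted p under 0.05 there were 17 above and 1 below, by DESeq2 7 and 0, and by voom 16 and 2. The median difference was 0.13. The 13 mitochondrially encoded genes held 0 by edgeR, with 1 below 0 at an unadjusted p under 0.05, by DESeq2 and by voom, and had a median of -0.21.

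Clade B serpins and gasdermins were listed after values were seen, so the share of all genes beside them measures no excess. Of 7 serpins 6 differences were below 0 in sign and 3 passed (Serpinb2, Serpinb3a and Serpinb3b). Of 6 gasdermins 5 were below 0 in sign and 3 passed (Gsdma3, Gsdmc and Gsdmc2), beside 0.783% of all genes.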
